A study of Mus musculus with 27 samples.

Results

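Cxcl1, Cxcl2, Cxcl5, Ccl2, Ccl7, Ccl11, Cxcl16, Il6 and Lif encode 7 inflammatory chemokines and 2 cytokines of the interleukin-6 family that stromal cells release into inflamed tissue. These 9 genes, of 54446 gene identifiers in the tables, were chosen as a named set, and all 9 were found. Their levels were described over 27 bulk RNA-seq libraries of cells sorted from NOD mice, a strain that develops autoimmune diabetes. Per the labels, the mice were 12 weeks old and were either Ins2-CCL21 NOD (TG+), in which an insulin promoter drives the chemokine CCL21 in beta cells, or non-transgenic NOD/ShiLtJ (TG-). The labelled groups were gp38-high cells of islets (2 TG+, 2 TG-), gp38-low cells of islets (4 TG+, 4 TG-), fibroblastic reticular cells (FRCs) of skin draining lymph nodes (3 TG+, 4 TG-) and CD45 cells of islet infiltrates (4 TG+, 4 TG-). The gp38 cells are labelled as FRC-like cells of tertiary lymphoid organs in the islets. All groups were therefore of NOD background and of the same age. Whether libraries of the same group stem from different animals is not in the labels. The p-values below therefore measure the spread between libraries, some of which may be technical.

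Chemokines are small secreted proteins that draw leukocytes along a gradient through receptors on the leukocyte surface. CXCL1, CXCL2 and CXCL5 act on CXCR2 and attract neutrophils. CCL2 and CCL7 act on CCR2 and attract monocytes, while CCL11 acts on CCR3 and attracts eosinophils. CXCL16 is made as a membrane protein that proteases such as ADAM10 can release, and its receptor CXCR6 is found on activated T cells. IL-6 and LIF signal through the shared receptor subunit gp130, encoded by Il6st, and the transcription factor STAT3. Fibroblasts and reticular cells are known to release several of these factors when IL-1 or TNF activates NF-kB in them.

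The libraries were read in 4 classes set by 3 genes: Ptprc (CD45) above 100 CPM, then Ccl21a above 1000 CPM, then Msln (mesothelin) above 100 CPM, then the rest. CPM is a gene's read count scaled to a fixed total of reads in genes. The classes held 7 Ccl21a-high, 4 Msln-high, 8 Ptprc-high and 8 remaining libraries, which equals the numbers labelled FRC (7), gp38-high (4), CD45 (8) and gp38-low (8). The classes nevertheless cut across the labels. Whether labels were exchanged between libraries was not tested, and every comparison by label takes the labels as given. The Ccl21a-high class held 4 libraries labelled CD45 and 3 labelled gp38-low, the Msln-high class 1 of each of the 4 labels, and the Ptprc-high class 5 labelled FRC and 1 of each other label. The rest class held 3 labelled gp38-low, 2 labelled gp38-high, 1 labelled FRC and 2 labelled CD45. The thresholds fell in wide gaps. Ccl21a was at 2162 CPM or more inside its class and at most 5.28 CPM outside, Msln at 573 CPM or more inside and at most 2.52 CPM outside, and Ptprc at 169 CPM or more inside and at most 5.79 CPM outside. The classes are not the study's groups. Levels by class are therefore described without a test, and each library is named by its label.

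The marker lists include the gene that set each class, whose place there was fixed by the rule. All 10 leukocyte markers listed lay higher in every Ptprc-high library than in every library of the rest class. Of 8 markers of lymphoid reticular stroma, 7 did so in the Ccl21a-high class, including Ccl19 and Cxcl13. Of 7 mesothelial markers, 5 did so in the Msln-high class. Without Ptprc, Ccl21a and Msln the counts were 9 of 9, 6 of 7 and 4 of 6. The 6 fibroblast genes such as Col1a1 summed to 15977 to 22711 CPM in the Ccl21a-high class, 12831 to 26143 CPM in the Msln-high class, 24.1 to 113 CPM in the Ptprc-high class and 30353 to 41658 CPM in the rest class. Libraries held 8517844 to 25194443 reads in genes, and the upper limit for a gene without reads, 3 counts, was 0.119 to 0.352 CPM (counting error only). The non-coding RNA Gm26917 took 5.31% to 36.0% of these reads and most in the Ptprc-high class (20.8% to 36.0%).

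The 9 genes lie on 2 chromosomes (GRCm38, the assembly of mm10). On chromosome 5, Cxcl5 (90759360 to 90761624), Cxcl1 (90891241 to 90893115) and Cxcl2 (90903871 to 90905938) share a stretch of 147 kb on the plus strand, and Il6 lies apart (30013114 to 30019981, plus strand). On chromosome 11, Ccl2 (82035571 to 82037453), Ccl7 (82045712 to 82047525) and Ccl11 (82057823 to 82062955) share 27.4 kb on the plus strand. Cxcl16 (70453983 to 70459984, minus strand) and Lif (4257557 to 4272514, plus strand) lie elsewhere on chromosome 11. Cxcl16 overlaps Zmynd15 and Ccl2 overlaps Gm17268, each on the opposite strand, and the counts used here are specific to a strand.

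Of the 9 genes, 4 had a sequence in the RefSeq promoter table (GRCm38.p6): Cxcl1, Cxcl2, Il6 and Lif. They are shown because NF-kB inducers and targets are among the genes described beside the 9. Each run of 220 bases covers 250 to 31 bases before the RefSeq start on the plus strand, at chr5:90890995-90891214 (Cxcl1), chr5:90903649-90903868 (Cxcl2), chr5:30012864-30013083 (Il6) and chr11:4257318-4257537 (Lif). The RefSeq start lies 4 (Cxcl1), 28 (Cxcl2) and 11 (Lif) bases downstream of the gene start given above, and at the same base in Il6. Capitals mark matches to the NF-kB motif or to the AP-1 motif TGANTCA, each searched on both strands. The TATA box letters TATAAA were searched as well.
Cxcl1: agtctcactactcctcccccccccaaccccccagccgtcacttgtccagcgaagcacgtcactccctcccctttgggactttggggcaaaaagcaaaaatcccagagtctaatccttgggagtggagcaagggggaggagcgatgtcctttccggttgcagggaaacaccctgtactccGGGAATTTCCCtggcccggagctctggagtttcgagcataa
Cxcl2: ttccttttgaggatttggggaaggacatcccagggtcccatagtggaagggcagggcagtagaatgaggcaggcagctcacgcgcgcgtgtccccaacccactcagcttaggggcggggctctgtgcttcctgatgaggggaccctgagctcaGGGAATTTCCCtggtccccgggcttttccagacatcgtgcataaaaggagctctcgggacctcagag
Il6: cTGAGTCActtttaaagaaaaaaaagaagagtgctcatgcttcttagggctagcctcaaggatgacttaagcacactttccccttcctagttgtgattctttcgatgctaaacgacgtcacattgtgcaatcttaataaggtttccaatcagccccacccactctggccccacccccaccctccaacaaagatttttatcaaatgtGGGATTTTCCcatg
Lif: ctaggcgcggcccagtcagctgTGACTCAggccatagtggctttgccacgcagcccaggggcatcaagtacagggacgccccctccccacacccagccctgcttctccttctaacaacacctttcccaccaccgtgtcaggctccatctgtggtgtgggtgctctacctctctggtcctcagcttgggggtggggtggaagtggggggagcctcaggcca
Cxcl1 and Cxcl2 carried the same letters GGGAATTTCCC at their NF-kB match, which reads as a match on either strand. It began at -71 in Cxcl1 and -97 in Cxcl2 from the RefSeq starts, or at -67 and -69 from the gene starts given above. Il6 carried GGGATTTTCC from -44. Thus 3 of the 4 upstream runs held the NF-kB motif, against 3.45% of 32851 mouse promoters cut to the same length. The AP-1 motif was in 2 of the 4, as TGAGTCA from -249 in Il6 and TGACTCA from -228 in Lif (RefSeq start), against 6.12% of promoters. TATAAA was in 0 of 4, against 9.95% of promoters. The runs end 31 bases before the RefSeq start, and letters nearer to the start were not searched. These counts therefore cannot show whether the genes have a TATA box there. A match to letters is a description of the sequence and not of binding, and the NF-kB and AP-1 matches did not overlap.

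Cxcl1, the neutrophil chemokine also known as KC, was highest in the Ccl21a-high class. It ranged from 266 CPM over a median of 618 CPM to 984 CPM in the 7 Ccl21a-high libraries, against 80.2, 87.9 and 143 CPM (lowest, median and highest of 8) in the rest class. The ranges did not overlap, and the medians stood 7.03-fold apart. In the 4 Msln-high libraries Cxcl1 was at 143 CPM (labelled CD45 TG+ replicate 1), 113 CPM (gp38-low TG- replicate 4), 52.3 CPM (gp38-high TG- replicate 1) and 50.5 CPM (FRC TG- replicate 2). The Msln-high class thus spread across the range of the rest class and beyond it at the low end. Cxcl1 had its lowest levels in the Ptprc-high class, at 5.46, 14.4 and 24.7 CPM (lowest, median and highest of 8), all below the rest class.

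Cxcl2 is a close relative of Cxcl1 and acts on the same receptor, but its order over the classes was another. It was at 12.2, 33.1 and 64.5 CPM (lowest, median and highest) in the Ccl21a-high class, against 0.549, 0.766 and 1.21 CPM in the rest class, a 43.2-fold difference of medians with no overlap. It reached 21.0, 55.3 and 78.2 CPM in the Ptprc-high class, which overlapped the Ccl21a-high class and also lay wholly above the rest class. The Msln-high libraries stood between, at 4.64, 6.0, 1.87 and 0.701 CPM in the order given for Cxcl1, and the lowest of them fell within the range of the rest class.

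Cxcl5, which stromal and epithelial cells can release as a neutrophil attractant, was detected well above the counting floor in the Ccl21a-high class alone. It was at 3.90, 13.0 and 21.3 CPM (lowest, median and highest) there, with at least 66 reads in each library. The 4 Msln-high libraries held 0.0703 to 0.574 CPM, from 1 to 12 reads. All 8 Ptprc-high libraries held 0 reads, with an upper limit of 0.162 to 0.352 CPM. In the rest class 1 library had 0 reads and the highest had 0.923 CPM from 16 reads. No fold is given for this gene, because the median of the rest class lies at the floor.

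**Figure D1:**
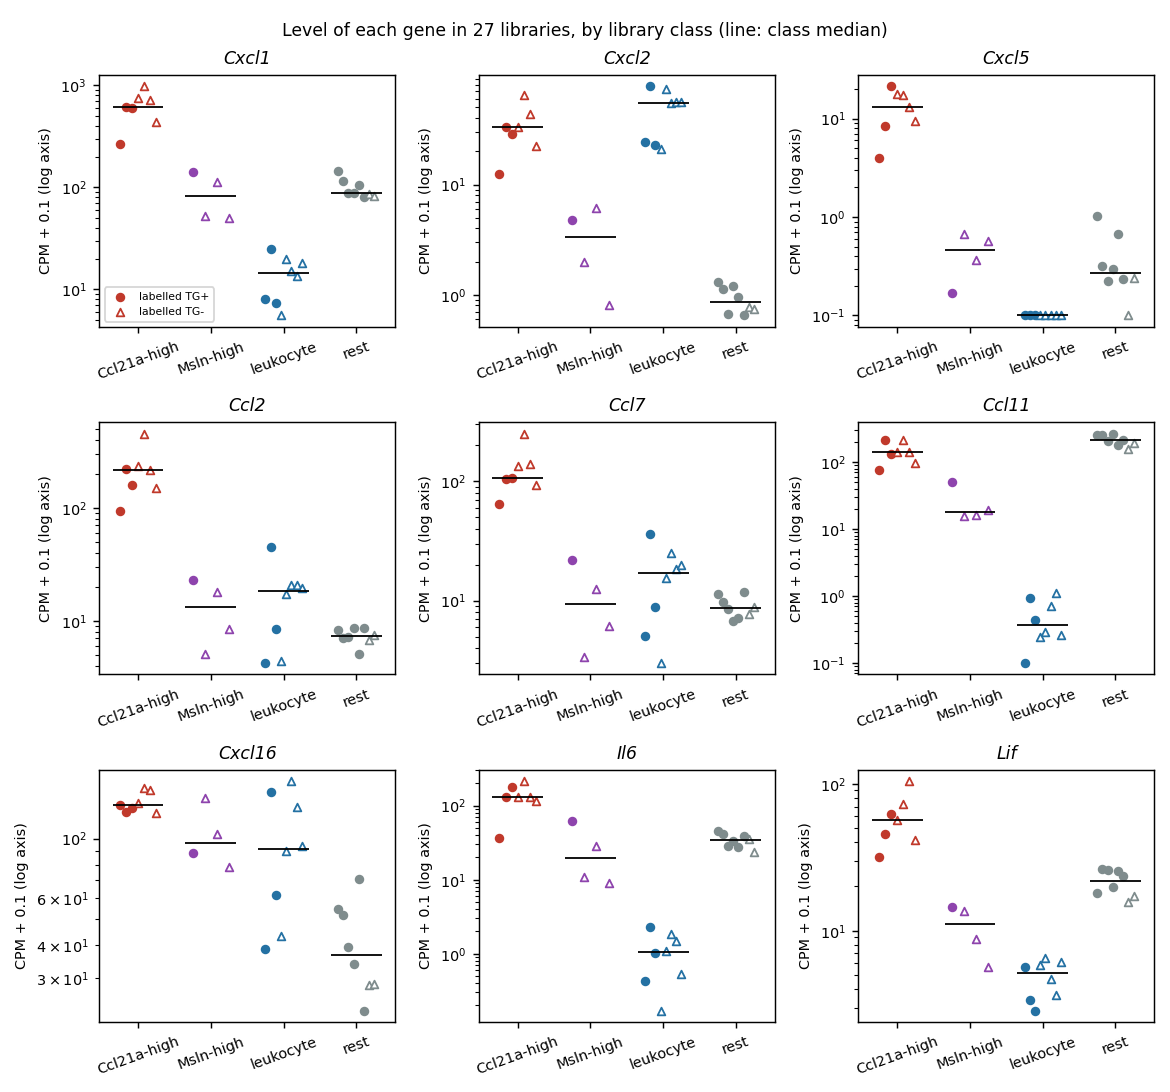
Level of each of the 9 genes in each of 27 libraries as CPM + 0.1 on a log axis, by library class (Ptprc-high drawn as leukocyte), with filled circles for libraries labelled TG+, open triangles for TG- and a line at the class median. Cxcl1 lies between 266 and 984 CPM in all 7 Ccl21a-high libraries, above every other library, whereas Ccl11 is highest in the rest class at a median of 211 CPM and at most 1.01 CPM in the Ptprc-high class.

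Ccl2, the main monocyte chemokine (MCP-1), had the next largest contrast after Cxcl2. Its level was 94.4, 216 and 454 CPM (lowest, median and highest) in the Ccl21a-high class, against 4.96, 7.23 and 8.57 CPM in the rest class. The medians differed 29.8-fold and the ranges lay far apart. The Msln-high libraries held 22.9, 17.8, 4.98 and 8.35 CPM, in the order of the labels CD45, gp38-low, gp38-high and FRC. The Ptprc-high class spread most, from 4.13 over a median of 18.4 to 44.8 CPM, so that both of these classes overlapped the rest class.

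Ccl7, which shares the receptor CCR2 and lies next to Ccl2 in the genome, followed the same order of classes. It was at 63.8, 107 and 250 CPM (lowest, median and highest) in the Ccl21a-high class, against 6.67, 8.63 and 11.7 CPM in the rest class, 12.3-fold apart by the medians. In the Msln-high libraries it was at 21.7, 12.4, 3.30 and 6.07 CPM, and in the Ptprc-high class at 2.90, 16.8 and 35.9 CPM. As with Ccl2, only the Ccl21a-high class stood clear of the rest class.

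Ccl11, the eosinophil chemokine eotaxin, is the third gene of that stretch and had the reverse order at the top. The Ccl21a-high class held 76.3, 143 and 213 CPM (lowest, median and highest), against 156, 211 and 266 CPM in the rest class. The ranges overlapped, the ratio of medians was 0.677, and the rest class held the highest median of the 4 classes. The Msln-high libraries were at 49.7, 16.4, 15.5 and 19.2 CPM, all below the rest class. The median was 0.265 CPM and the highest library 1.01 CPM, from at most 13 reads, in the Ptprc-high class. Ccl11 thus separated the 19 stromal libraries from the leukocyte libraries without overlap, while Ccl2 and Ccl7 did not.

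Cxcl16, the membrane-bound chemokine, varied least between classes. It was at 124, 133 and 154 CPM (lowest, median and highest) in the Ccl21a-high class, against 22.6, 36.6 and 70.4 CPM in the rest class, a 3.63-fold difference of medians without overlap. The Msln-high libraries held 88.1, 104, 141 and 78.4 CPM, in the order CD45, gp38-low, gp38-high and FRC, and this was the only member for which every Msln-high library exceeded the rest class. The Ptprc-high class ranged from 38.6 to 164 CPM around a median of 91.7 CPM and overlapped all 3 other classes.

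Il6, the cytokine that drives the acute phase response, was at 36.1, 131 and 215 CPM (lowest, median and highest) in the Ccl21a-high class, against 23.7, 34.3 and 45.3 CPM in the rest class. The medians stood 3.83-fold apart, but the ranges overlapped because of 1 library, labelled CD45 TG+ replicate 3, at 36.1 CPM. The other 6 Ccl21a-high libraries were at 116 CPM or more. The Msln-high libraries were at 62.3, 28.1, 10.9 and 8.99 CPM. The Ptprc-high class held at most 2.23 CPM, from 1 to 20 reads per library, and lay below every stromal library.

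Lif, a cytokine of the same family known for keeping mouse embryonic stem cells undifferentiated, showed the same order of class medians as Il6. The Ccl21a-high and Ptprc-high medians stood closer to the rest class than for Il6. The Msln-high median stood further below it, 1.95-fold for Lif and 1.76-fold for Il6. Lif was at 31.7, 56.5 and 104 CPM (lowest, median and highest) in the Ccl21a-high class, against 15.5, 21.6 and 26.1 CPM in the rest class, a 2.62-fold difference without overlap. The Msln-high libraries held 14.5, 8.63, 13.5 and 5.55 CPM, all below the rest class. The Ptprc-high libraries held 2.76, 5.08 and 6.37 CPM and were also wholly below it.

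Counted over the members, 7 of 9 lay higher in every Ccl21a-high library than in every library of the rest class, against 9.34% of the 18393 genes that passed the expression filter. Such genes are said to lie wholly above, and the opposite wholly below. The exceptions were Il6 and Ccl11. Among the 7, Cxcl5 had at least 66 reads in each Ccl21a-high library and at most 16 in any other library. It passed the filter through the Ccl21a-high class, so its place among the 7 is no separate support. None of the 9 lay wholly below, against 14.2% of genes. In the Msln-high class 1 of 9 lay wholly above (Cxcl16; 19.5% of genes) and 2 of 9 wholly below (Ccl11 and Lif; 7.3% of genes). In the Ptprc-high class 1 of 9 lay wholly above (Cxcl2; 17.1% of genes) and 4 of 9 wholly below (Cxcl1, Ccl11, Il6 and Lif; 26.2% of genes). Read against these shares, the counts in the Msln-high and Ptprc-high classes are too small to be a result about the members. Doubling the class thresholds moved the library labelled FRC TG- replicate 4, with 169 CPM of Ptprc, into the rest class. Then 0 members lay wholly above or below in the Msln-high and Ptprc-high classes, and 6 in place of 7 lay wholly above in the Ccl21a-high class.

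The median log2 ratio of class medians over 8 members, all but Cxcl5, was 2.38 for the Ccl21a-high class against the rest class, beside -0.11 over all genes. For the Ptprc-high class it was -0.56 beside -0.33 over all genes. For the Msln-high class it was 0.0020 beside 0.18 over all genes, and with TMM scaling it turned to -0.35 beside -0.03. TMM scaling gave 2.45 beside 0.03 for the Ccl21a-high class and -0.45 beside -0.06 for the Ptprc-high class. In sorted bulk samples fewer cells of a type and less RNA per cell cannot be told apart.

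Levels can be ordered between genes only per kb of exon. On that scale Cxcl1 led in the Ccl21a-high class with a median of 330 CPM per kb, followed by Ccl2 (189), Ccl7 (133), Ccl11 (132), Il6 (54.0), Cxcl16 (44.0), Cxcl2 (16.0), Lif (13.0) and Cxcl5 (6.99). In the Msln-high class Cxcl1 (44.0) and Cxcl16 (31.8) led. The order of the Ptprc-high class began with Cxcl16 (30.4), Cxcl2 (26.7), Ccl7 (21.0) and Ccl2 (16.2), while Cxcl1 was at 7.66 CPM per kb. Ccl11 led in the rest class with 195 CPM per kb and did not overlap with Cxcl1, which came next at 46.9. In the order of the Ccl21a-high class the libraries of neighbouring genes overlapped, except those of Cxcl16 and Cxcl2.

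Ratios within a library do not depend on its depth and set neighbouring genes side by side. The ratio of Cxcl1 to Cxcl2, each per kb, was 16.8 to 24.8 in the Ccl21a-high class, 20.7 to 79.5 in the Msln-high class, 0.269 to 0.366 in the Ptprc-high class and 87.2 to 171 in the rest class. The Ccl21a-high, Ptprc-high and rest classes did not overlap in this ratio, and in the Ptprc-high class Cxcl2 was the higher of both genes in all 8 libraries. The ratio of Ccl11 to Ccl2 was 0.493 to 1.01 in the Ccl21a-high class, 0.965 to 3.29 in the Msln-high class, 0 to 0.0516 in the Ptprc-high class and 24.5 to 39.2 in the rest class. The Ccl2 to Ccl7 ratio moved less, with medians of 1.14, 0.992, 0.745 and 0.552 in the same order of classes. Its range was 1.04 to 1.49 in the Ccl21a-high class and 0.491 to 0.892 in the rest class, without overlap. The Il6 to Lif ratio had medians of 5.0, 4.36, 0.438 and 2.93, and the 3 stromal classes overlapped. Exon lengths came from the annotation, so the isoforms in use can shift such a ratio. Whether isoform use differed between classes was not examined.

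**Figure D2:**
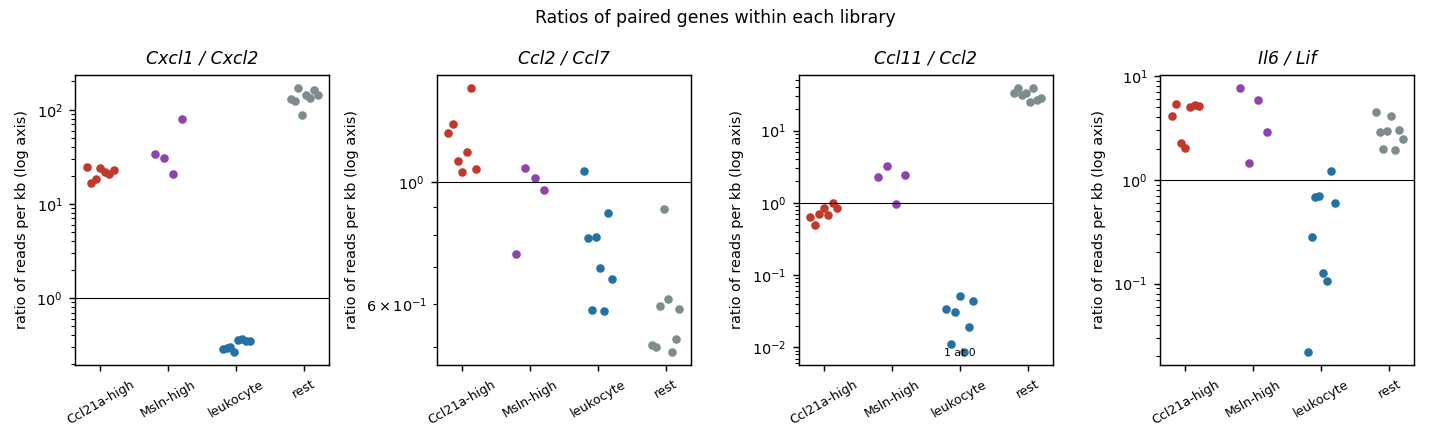
Ratio of reads per kb of exon between 4 pairs of genes within each library (log axes), by library class (Ptprc-high drawn as leukocyte), with 1 point per library and a line at a ratio of 1. Cxcl1 to Cxcl2 is 16.8 to 24.8 in the Ccl21a-high class and 0.269 to 0.366 in the Ptprc-high class, and Ccl11 to Ccl2 is 24.5 or more in the rest class and at most 1.01 in the Ccl21a-high class.

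Within the Ccl21a-high class the members varied more than most genes. The SD of log2 CPM over its 7 libraries was 0.61 for the median member, from 0.12 (Cxcl16) to 0.83 (Cxcl5), beside 0.38 for the median gene. The median member's SD was 0.78 beside 0.30 in the Msln-high class and 0.80 beside 0.44 in the Ptprc-high class, but 0.29 beside 0.43 in the rest class. In the Ccl21a-high class 1 library, labelled CD45 TG+ replicate 3, was the lowest of 7 for 8 of the 9 members, all but Cxcl16. The library labelled CD45 TG- replicate 2 was the highest for 7 of 9, all but Cxcl5 and Lif. The highest and lowest Ccl21a-high libraries, which were these 2 for Cxcl1, Ccl2 and Il6, stood 3.70-fold, 4.81-fold and 5.95-fold apart in those genes, though both were labelled CD45.

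Pairs of the 9 genes were compared within the classes. Among the Ccl21a-high libraries all 36 pairs of members correlated positively in log2 CPM, with a median Pearson r of 0.77 (from 0.30 to 0.98, n = 7), beside 53.9% of all gene pairs positive and a median of 0.058. Without CD45 TG+ replicate 3 all 36 were still positive, with a median r of 0.66 and a lowest r of 0.0039. In the rest class 27 of 36 pairs were positive with a median of 0.27 (n = 8), beside 54.5% and 0.089 for all gene pairs. Among Ptprc-high libraries, where Cxcl5 was at 0, 23 of 28 were positive with a median of 0.78 (n = 8), beside 57.2% and 0.11. Pairs with Ccl11 (at most 13 reads per library there) or Il6 (at most 20) rest on few reads. The values share libraries, scaling and the share of reads taken by Gm26917, so these correlations describe the libraries only.

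**Figure D3:**
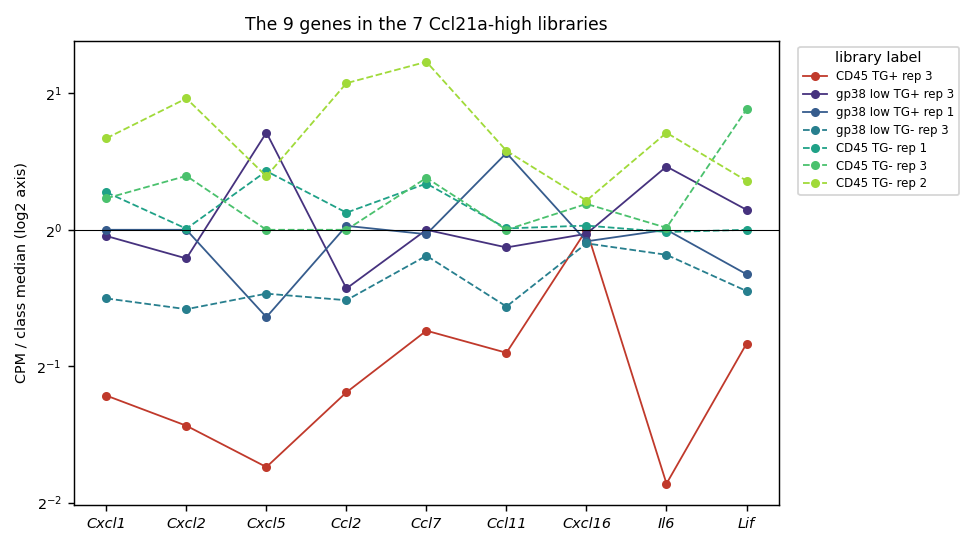
CPM of each of the 9 genes in the 7 Ccl21a-high libraries, divided by the median of these libraries (log2 axis), with 1 line per library, solid for libraries labelled TG+ and dashed for TG-. The library labelled CD45 TG+ replicate 3 lies lowest for 8 of the 9 genes, and CD45 TG- replicate 2 lies highest for 7.

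Genes whose levels were most like those of each member were taken by Spearman's rho over the 19 libraries outside the Ptprc-high class, among 9600 genes. Cxcl2 was most like Gadd45b, a stress-induced gene (rho 0.97), and the NF-kB targets Nfkbia (0.96) and Birc3 (0.95). Ccl2 was most like the immediate early gene Ier5, the complement protease gene C1s2 and the small GTPase gene Gem (rho 0.94, 0.94 and 0.93), and for Ccl7 the same rule named Ier5 (0.88) and Gem (0.88). Cxcl1 was most like Igfbp7, Tent5a and Snai2 (0.90, 0.90 and 0.89). Cxcl5 was most like Lrp5, Tmem176b and Lncppara (0.93, 0.92 and 0.92). Ccl11 was most like Adamtsl3, Marcks and Lpl (0.93, 0.93 and 0.92), Cxcl16 most like Sik1, Tspan7 and Suclg2 (0.96, 0.95 and 0.95), Il6 most like Mogs, Trmt61a and Vcam1 (0.91, 0.88 and 0.85), and Lif most like Abtb2, Bgn and Gfra2 (0.93, 0.93 and 0.92). The 19 points fall into the 3 stromal classes, and the coefficients carry no test.

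Among 16 other inflammatory chemokines, 13 passed the expression filter. In the Ccl21a-high class 5 of the 13 lay wholly above the rest class (9.34% of all genes) and 1 wholly below (14.2%). Cxcl9 and Cxcl10, interferon-induced ligands of CXCR3, had medians of 99.8 and 76.7 CPM in the Ccl21a-high class, against 7.45 and 8.33 CPM in the rest class. Cx3cl1 (fractalkine) was at 68.7 CPM against 11.2 CPM, and Ccl9 at 35.3 CPM against 0.631 CPM. Cxcl14 lay the other way, at 21.2 CPM against 237 CPM in the rest class. In the Ptprc-high class 9 of the 13 lay wholly above (17.1% of all genes) and 1 wholly below (26.2%). Those 9 included the T cell and macrophage chemokines Ccl3, Ccl4 and Ccl5, at medians of 18.9, 18.6 and 39.1 CPM, of which Ccl4 had 0 reads in all 7 Ccl21a-high libraries and in all 8 libraries of the rest class. In the Msln-high class 2 lay wholly above (19.5% of all genes) and 1 wholly below (7.3%). Ccl12 and Ccl8, which lie just beyond Ccl11 on chromosome 11, were highest in the Ptprc-high class, at medians of 5.88 and 37.7 CPM, and at most 0.315 and 1.58 CPM in any Ccl21a-high library.

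The receptors of the member chemokines lay mostly in the leukocyte libraries. Of 9 listed, 8 passed the filter. In the Ptprc-high class 5 of them, including Cxcr2, Ccr2 and Cxcr6, were wholly above the rest class (17.1% of all genes). Ccr2, the receptor of CCL2 and CCL7, had a median of 55.7 CPM there, against 0.0973 CPM in the rest class. Cxcr6, the receptor of CXCL16, was at 15.5 CPM there, and its median in the rest class was 0. Cxcr2, the receptor of CXCL1, CXCL2 and CXCL5, had a low median of 1.49 CPM in the Ptprc-high class, and Ccr3, the receptor of CCL11, 0.491 CPM. Ccr3 had a median of 0.684 CPM in the Msln-high class (0.335 to 0.947 CPM) and lay wholly above the rest class there. It overlapped the Ptprc-high class (0 to 1.41 CPM), and these levels rest on few reads near the counting floor. The decoy receptors Ackr1 and Ackr2, which bind inflammatory chemokines without the usual signal, lay wholly below the rest class in each of the 3 other classes. Their medians were 1.67 and 2.83 CPM in the Ccl21a-high class, 3.47 and 0.842 CPM in the Msln-high class, 0.350 and 2.30 CPM in the Ptprc-high class, and 19.7 and 56.3 CPM in the rest class. Of the proteases that can shed CXCL16, Adam10 was highest in the Msln-high class, at 117 to 134 CPM, wholly above the rest class. It had a median of 79.6 CPM in the Ccl21a-high class, against 69.5 CPM in the rest class, and Adam17, which overlapped between classes, 69.1 CPM against 84.6 CPM.

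Of 14 genes of the IL-6 family and its signalling, 13 passed the filter. In the Ccl21a-high class 6 lay wholly above the rest class (9.34% of all genes) and 0 wholly below (14.2%). These 6 were the receptor subunits Il6st (gp130), Lifr, Osmr, Il11ra1 and Cntfr and the transcription factor Stat3. Lifr had a median of 853 CPM in the Ccl21a-high class, against 255 CPM in the rest class, and Osmr, the oncostatin M receptor, 369 CPM against 88.1 CPM. Il6ra, the subunit specific to IL-6, was highest in the Ptprc-high class (106 CPM) and was at 70.3 CPM in the Ccl21a-high class, against 39.6 CPM in the rest class. Osm, the ligand of OSMR, was found at 26.9 CPM in the Ptprc-high class and at most 0.414 CPM in any other library. The feedback inhibitor Socs3 overlapped between the Ccl21a-high class (710 CPM) and the rest class (775 CPM). In the Ptprc-high class 2 of the 13 lay wholly above (17.1% of all genes) and 6 wholly below (26.2%). In the Msln-high class 4 lay above (19.5%) and 1 below (7.3%).

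All 20 listed NF-kB inducers and targets passed the filter. In the Ccl21a-high class 11 lay wholly above the rest class (9.34% of all genes) and 0 wholly below (14.2%). The IL-1 receptor gene Il1r1 had a median of 471 CPM in the Ccl21a-high class, against 95.1 CPM in the rest class, and 4.12 CPM in the Ptprc-high class. The feedback inhibitors Tnfaip3 (A20) and Nfkbia were at 634 and 643 CPM, against 39.5 and 145 CPM, and the adhesion genes Vcam1 and Icam1 at 888 and 426 CPM, against 50.2 and 103 CPM. The inducing cytokines themselves were highest in the leukocyte libraries. Il1b had a median of 123 CPM in the Ptprc-high class, 0.946 CPM in the Ccl21a-high class and 0 in the rest class, and Tnf 66.7 CPM, 1.95 CPM and 4.32 CPM in the same order. Among the 20, the Ptprc-high class held 9 wholly above (17.1% of all genes) and 4 wholly below (26.2%). In the Msln-high class 5 lay wholly above (19.5%) and 0 below (7.3%). The lists were described by such counts, to be read against the shares of all genes given for each class, and were not tested as sets.

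**Figure D4:**
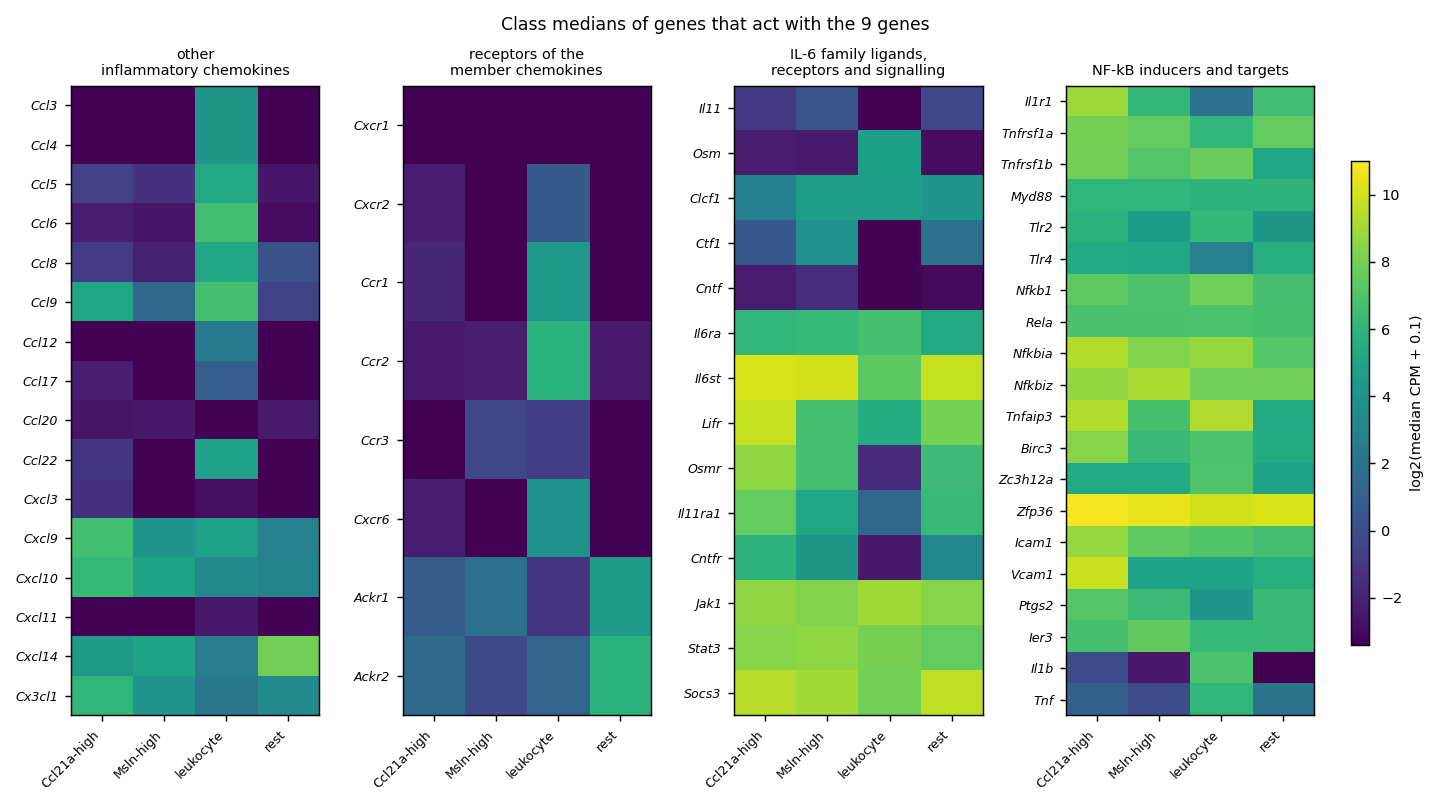
Class medians of listed chemokines, receptors, IL-6 family genes and NF-kB genes as log2(median CPM + 0.1), by library class in columns. Il1r1, Vcam1, Lifr and Osmr are brightest in the Ccl21a-high column, whereas Il1b, Tnf, Ccr2 and Osm are brightest in the Ptprc-high column, labelled leukocyte.

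Other signals moved with the Ccl21a-high class. The 10 leukocyte markers summed to 119 to 161 CPM there, against 17.9 to 25.4 CPM in the rest class and 7053 to 13800 CPM in the Ptprc-high class. Most of it was Cd74, whose median was 124 CPM in the Ccl21a-high class, while Ptprc was at 2.81 CPM, and 3 of the 10 markers lay wholly above the rest class. The 5 neutrophil markers summed to 0.118 to 4.05 CPM in the Ccl21a-high class, against 0 to 0.489 CPM in the rest class, and the 5 macrophage markers to 13.5 to 24.1 CPM against 11.5 to 40.7 CPM. Of the neutrophil markers in the Ccl21a-high class, Ly6g and Retnlg had medians of 0, and S100a8, S100a9 and Csf3r were at 0.206, 0.416 and 0.191 CPM. Ly6g was low in the Ptprc-high class as well (0.193 CPM). Of the macrophage markers in the Ccl21a-high class, Adgre1 had a median of 0, and C1qa, C1qb, Csf1r and Mertk were at 0.337, 0.258, 2.54 and 15.6 CPM. The 7 pericyte and smooth muscle markers summed to 3233 to 4652 CPM in the Ccl21a-high class, against 192 to 304 CPM in the rest class, with 6 wholly above and Cspg4 wholly below. Acinar markers summed to 0.383 to 2.01 CPM in the Ccl21a-high class, against 86.1 to 9633 CPM in the rest class, and the median of Cpa1 was 0. The part of leukocyte, pericyte and acinar signals in the levels of the 9 genes was not tested.

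Immediate early and heat shock genes, which are known to respond to tissue dissociation, also differed between classes. Of 11 such genes, Jun, Hspa1a, Hspa1b and Dnajb1 lay wholly above the rest class in the Ccl21a-high class (9.34% of all genes). Ier2 lay wholly below (14.2%). Hspa1a had a median of 1453 CPM in the Ccl21a-high class, against 77.2 CPM in the rest class, and 293 CPM in the Msln-high class. The 11 genes summed to 15576 to 23021 CPM in the Ccl21a-high class, against 9704 to 16483 CPM in the rest class, and 16034 to 21550 CPM in the Msln-high class. In the Msln-high class 6 of the 11 lay wholly above the rest class (19.5% of all genes), as Cxcl16 did. Ccl11 and Lif lay wholly below the rest class, and the other 6 members overlapped it. Within the Ccl21a-high class the sum was lowest in gp38-low TG- replicate 3 (15576 CPM, Cxcl1 436 CPM). CD45 TG+ replicate 3 came next (16925 CPM, Cxcl1 266 CPM). The highest sums were in CD45 TG- replicate 3 (23021 CPM, Cxcl1 726 CPM) and CD45 TG- replicate 2 (22126 CPM, Cxcl1 984 CPM). The part of immediate early and heat shock genes in the levels of the 9 genes was not tested.

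The comparisons that the labels set out were tested over all genes with edgeR (quasi-likelihood test, p-values adjusted after Benjamini and Hochberg). For gp38-low against FRC libraries, with both genotypes weighted equally (8 against 7), the members with the smallest p were Cxcl1 and Il6. Cxcl1 was at 618, 105, 599 and 80.2 CPM in the 4 gp38-low TG+ libraries and at 15.2, 86.3, 436 and 113 CPM in the 4 gp38-low TG- libraries. In FRC libraries it was at 8.05, 24.7 and 7.25 CPM (TG+) and at 82.7, 50.5, 13.5 and 18.1 CPM (TG-). The gp38-low libraries at 15.2 and 80.2 CPM lay within the FRC values, so the groups overlapped, and 3 of the 8 gp38-low libraries belonged to the Ccl21a-high class. The log2 difference was 3.35 ± 0.76 (SE) and the adjusted p of edgeR 0.0943. Il6 was at 131, 27.6, 181 and 39.0 CPM in gp38-low TG+ and at 1.74, 35.5, 116 and 28.1 CPM in gp38-low TG- libraries, against 0.326, 2.23 and 0.921 CPM in FRC TG+ and 23.7, 8.99, 1.40 and 0.432 CPM in FRC TG- libraries. Its log2 difference was 4.38 ± 1.03 with the same adjusted p of 0.0943 in edgeR, and 1 gp38-low library lay among the FRC values.

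In that comparison edgeR called 0 of 9 members and 0% of 18396 genes at a false discovery rate of 0.05. Its unadjusted p was under 0.05 for 6 of 9 members, beside 6639 of the 18396 genes. DESeq2 called 6 members (Cxcl1, Cxcl5, Ccl2, Ccl11, Il6 and Lif, all higher in gp38-low) and 26% of genes. Limma-voom with quality weights called 5 members, all of these but Ccl2, and 47% of genes, so that its count of members is near the share of all genes. Of the libraries labelled FRC 5 of 7 were Ptprc-high, against 1 of 8 labelled gp38-low. Without the library labelled gp38-low TG- replicate 1, which is Ptprc-high, edgeR gave Cxcl1 and Il6 an adjusted p of 0.0194, and without FRC TG- replicate 1, a library of the rest class, 0.0489. Over all libraries left out in turn the adjusted p of both genes ranged from 0.0194 to 0.179, and over the other alternatives from 4.07e-05 to 0.218 for Cxcl1 and from 1.75e-05 to 0.218 for Il6.

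Against gp38-low libraries, gp38-high libraries were lower in all 9 members by the fitted values, as were 52.7% of all genes. However, edgeR called 0 of 9 and 0% of 18396 genes. Its unadjusted p was under 0.05 for 5 of 9 members, beside 509 of the 18396 genes. Cxcl1 was at 88.0 and 87.8 CPM in gp38-high TG+ and at 52.3 and 19.7 CPM in gp38-high TG- libraries, and these values lay within the range of gp38-low libraries given above. Its log2 difference was -2.41 ± 0.89 (edgeR, adjusted p = 0.9999). Ccl7 was at 8.44 and 6.67 CPM in gp38-high TG+ and at 3.30 and 15.3 CPM in gp38-high TG- libraries, against 104, 7.12, 107 and 11.7 CPM in gp38-low TG+ and 24.8, 7.70, 93.4 and 12.4 CPM in gp38-low TG- libraries. Its log2 difference was -2.59 ± 1.0 (edgeR, adjusted p = 0.9999). None of the libraries labelled gp38-high was Ccl21a-high, against 3 of 8 labelled gp38-low. DESeq2 (0.799% of genes called) and limma-voom (0%) also called 0 members.

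For the transgene within each label edgeR called 0 members and 0% of genes in each of 4 comparisons. In CD45 libraries (14871 genes tested) 1 member was at an unadjusted p under 0.05. This was Cxcl2, at 4.64, 1.21, 12.2 and 1.03 CPM in TG+ against 33.3, 64.5, 43.5 and 21.0 CPM in TG-. The groups did not overlap, and the log2 difference was -3.23 ± 0.86 (edgeR, adjusted p = 0.506). Lif came next, at 14.5, 17.99, 31.7 and 26.1 CPM in TG+ against 56.5, 72.5, 104 and 5.74 CPM in TG-, with a log2 difference of -1.56 ± 0.71 (edgeR, adjusted p = 0.539). The groups overlapped through TG- replicate 4, which is the Ptprc-high library among those labelled CD45. Of the other CD45 libraries, the 3 TG- ones and TG+ replicate 3 were Ccl21a-high, TG+ replicates 2 and 4 were in the rest class and TG+ replicate 1 was Msln-high. Genotype and class therefore cannot be told apart in these libraries. DESeq2 called Cxcl2 alone (adjusted p = 0.00738) and 2.87% of genes. Limma-voom with quality weights called 8 members, all but Ccl11, and 41.6% of genes. Without TG+ replicate 3, edgeR gave Cxcl2 an adjusted p of 0.0270. Its adjusted p ranged from 0.0270 to 0.888 over the libraries left out in turn and from 0.000551 to 0.813 over the other alternatives.

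In gp38-high libraries 920 of 17937 genes and 1 member were at an unadjusted p under 0.05 in edgeR. Ccl11 was at 208 and 266 CPM in TG+ against 15.5 and 0.186 CPM in TG-. Its log2 difference was 5.18 ± 2.2 (edgeR, adjusted p = 0.663). Cxcl2 was at 0.567 and 1.11 CPM in TG+ against 1.87 and 73.9 CPM in TG-, with a log2 difference of -5.73 ± 2.72 (edgeR, adjusted p = 0.663). Neither gene overlapped between the genotypes, but both TG+ libraries were in the rest class, TG- replicate 1 was Msln-high and TG- replicate 2 Ptprc-high. In gp38-low libraries 273 of 14095 genes and 0 members were at an unadjusted p under 0.05 in edgeR. The first members were Lif (log2 difference 1.0 ± 0.76) and Ccl11 (1.22 ± 1.21), both with an adjusted p of 0.999 in edgeR. In FRC libraries 981 of 13819 genes and 1 member were at an unadjusted p under 0.05 in edgeR. Ccl11 was at 0, 0.822 and 0.345 CPM in TG+ against 194, 19.2, 1.01 and 0.162 CPM in TG-, and the groups overlapped. Its log2 difference was -7.05 ± 2.75 (edgeR, adjusted p = 0.696), and that of Cxcl1 was -1.52 ± 0.76 (adjusted p = 0.721). All 3 FRC TG+ libraries were Ptprc-high, against 2 of 4 FRC TG- libraries. In these 3 comparisons DESeq2 called 0 members and 0.223% (gp38-high), 0.00709% (gp38-low) and 3.97% (FRC) of genes, and limma-voom 0 members and 0% of genes. Cxcl5 did not pass the filter in gp38-low and FRC libraries and was not tested there.

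The labelled genotype was also tested over all 27 libraries (13 TG+, 14 TG-) with the class as a term. This fit takes a common genotype difference for all classes, so opposite directions in single classes can cancel in it. All 9 members stayed within a log2 difference of 0.32 in either direction, and edgeR called 0 of 9 and 0% of 18393 genes. Its unadjusted p was under 0.05 for 0 members, beside 1779 of the 18393 genes. The log2 differences were 0.32 ± 0.31 for Il6, 0.30 ± 0.24 for Ccl11, 0.00096 ± 0.26 for Ccl7, -0.04 ± 0.31 for Ccl2 and -0.04 ± 0.23 for Cxcl1. They were -0.09 ± 0.19 for Cxcl16, -0.13 ± 0.20 for Lif, -0.21 ± 0.47 for Cxcl5 and -0.26 ± 0.29 for Cxcl2. The lowest adjusted p among them was 0.612 (Ccl11, edgeR), and DESeq2 and limma-voom called 0 members as well. Without the class term Ccl7 and Il6 had log2 differences of -0.81 and -0.14.

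**Figure D5:**
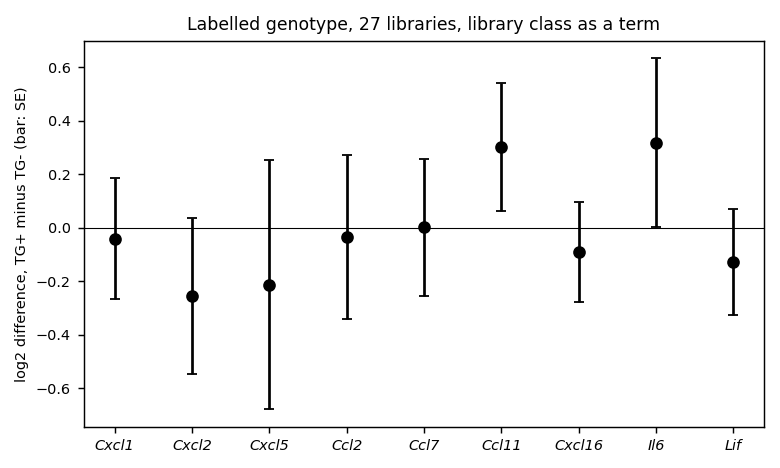
Log2 difference (libraries labelled TG+ minus TG-) of each of the 9 genes over 27 libraries with the library class as a term in edgeR, with bars of 1 SE. The 9 points lie between -0.26 and 0.32, and edgeR called none.

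Within single classes the genotypes overlapped in most members. Differences of mean log2 CPM (TG+ minus TG-) ran from -0.74 (Cxcl2) to -0.12 (Cxcl16) in the Ccl21a-high class. In the rest class they ran from 0.032 (Ccl2) to 0.70 (Cxcl5, which lies near the floor there). The directions in these classes were thus opposite, while signs were mixed in the Msln-high and Ptprc-high classes. Among the 3 TG+ libraries of the Ccl21a-high class, CD45 TG+ replicate 3 was the lowest of 7 for 8 of the 9 members. The differences there lean on this library and were not computed without it. The share of all genes with such directions was not computed. In the Ccl21a-high class (3 TG+, 4 TG-) all 9 members overlapped. Cxcl1 was at 618, 599 and 266 CPM in TG+ against 748, 984, 726 and 436 CPM in TG-, and Il6 at 131, 181 and 36.1 CPM in TG+ against 130, 215, 132 and 116 CPM in TG-. In the rest class (6 TG+, 2 TG-) Lif was at 17.99 to 26.1 CPM in TG+ against 15.5 and 17.2 CPM in TG-, and the other 8 members overlapped. In the Ptprc-high class (3 TG+, 5 TG-) all 9 overlapped. The Msln-high class had 1 TG+ library, labelled CD45 replicate 1, which was the highest of 4 in 6 members.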

How the data were processed

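Cells were stained, sorted into TRIzol and their RNA purified on RNeasy columns, and libraries were made with the KAPA RNA HyperPrep kit with RiboErase, per the labels' protocols. Per the submitters' processing notes, the tools were STAR 2.5.2a, Trim Galore 0.4.3 and bcl2fastq 2.17, and the build was mm10. The authors deposited raw read counts per gene for each of 27 libraries (STAR layout). Their annotation release was not given in the sources used here. Each library had 32113714 to 59605092 reads. Lines that name no gene were left out: unmapped reads were 19.4% to 67.7%, multimapped reads 4.98% to 7.28%, and reads outside genes or ambiguous 6.37% to 26.8%. The reverse-strand column was used, since the forward-strand column held 6.67% to 15.3% of the stranded reads. Of 54446 identifiers, 54409 matched GENCODE M21. Ccl21a has near-identical copies, so its level is uncertain.

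CPM were counts over the reads in genes of a library. Labelled groups were compared in R 4.3.3 by edgeR 4.0.16 (robust quasi-likelihood test, TMM factors, filterByExpr), with Benjamini-Hochberg adjustment over all genes tested at 0.05. The SE of a log2 difference was its size over the square root of F. The CD45, gp38-low and FRC genotype contrasts were fitted alone, the gp38-high one with the 12 gp38 libraries, and population contrasts with the 19 libraries labelled gp38 or FRC. Alternatives were DESeq2 1.42.0, limma-voom (limma 3.58.1) with quality weights, other size factors, no filter, unstranded counts, abundant genes left out, a replicate block, other libraries or terms in the fit, other class thresholds and each library left out. The test was tried on simulated data.

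The members and gene lists were chosen with earlier results of these data known. Named with test values were the 2 members with the smallest p per label contrast and all 9 with class as a term. From each list, genes with large or small class ratios or detected in 1 class were named, together with receptors and partners of the members chosen after their values were seen. Like genes were the 3 with the highest rho among non-members with a mean log2 CPM of at least 3 (prior count 2). Promoters were cut to 250 to 31 bases before the start. Some listed or rule-named genes are not reported here.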

Additional observations from a re-analysis of the deposited data

Results flagged for a closer look

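Values of the 9 genes were screened for a library far from the others of its class or label in 56 groups of 4 to 10 libraries, and 2 stood out. Chance flags about 1 in 20 groups of this kind. Il6 in the Ccl21a-high class had 36.1 CPM for CD45 TG+ replicate 3, while the other 6 libraries were at 116 to 215 CPM. Ccl2 in the rest class was at 4.96 CPM in the library labelled gp38-low TG+ replicate 2, while the other 7 were at 6.70 to 8.57 CPM. The causes were not tested.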

How the results depend on the processing

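Against 0 genes called by edgeR, DESeq2 called 427 (CD45), 40 (gp38-high), 1 (gp38-low) and 549 (FRC) for the transgene, 147 for gp38-high against gp38-low and 4777 for gp38-low against FRC. Limma-voom with quality weights called 6184 (CD45) and 8651 (gp38-low against FRC). With 1 library left out in turn, edgeR called 0 to 519 in CD45 (519 without TG+ replicate 3) and 0 to 5403 for gp38-low against FRC (5403 without gp38-low TG- replicate 1, 1369 without FRC TG- replicate 1). In the other comparisons it called 0 with any library left out. The causes were not tested. Doubled class thresholds, which moved 1 library, left 0 members wholly above or below the rest class in the Msln-high and Ptprc-high classes. Members wholly above in the Msln-high class numbered 1 to 2 with 1 library left out (2 without FRC TG- replicate 2).

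In the fit with class as a term, where no member was called, small log2 differences changed sign. Using only libraries with low Ptprc gave 0.0018 for Cxcl1, -0.00021 for Ccl7 and 0.025 for Cxcl16. Without the class term Ccl7 was at -0.81 and Il6 at -0.14. Ccl7 was also at -0.33 with limma-voom, -0.0032 without a filter and -0.0097 with unstranded counts. With 1 library left out the log2 difference ranged from -0.25 to 0.069 (Cxcl1), -0.77 to 0.096 (Cxcl5), -0.38 to 0.083 (Ccl2), -0.31 to 0.11 (Ccl7), -0.032 to 0.43 (Ccl11), -0.22 to 0.018 (Cxcl16) and -0.092 to 0.49 (Il6).

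Libraries of the same replicate number correlated at -0.14 to 0.62 after removing group means. The labelled groups mix library classes, so these values hold class differences. They cannot show whether replicate numbers pair the samples. With the replicate block edgeR called 0 genes in all 7 comparisons, and Ccl7 was at -0.061 with the class term. Depth limits Cxcl5 outside the Ccl21a-high class and Ccl11 and Il6 in the Ptprc-high class, which rest on at most 20 reads per library.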
